A study of Brassica napus and Camelina sativa and Thlaspi arvense with 24 samples.

Results

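The C05 and A05 end segments of *B. napus* are the last stretches of gene IDs on chromosomes C05 and A05, and they were described here gene by gene in the lines DH12075 and N99. The C05 segment ran from BnaC05g062950 to BnaC05g072140 and the A05 segment from BnaA05g037450 to BnaA05g045210, and each reached the last ID of its chromosome in the expression table. A gene was a member if its mean was at least 1 TPM (a transcript's length-corrected share of all transcripts of a library, scaled to a fixed total) in at least 1 line. This gave 440 members among the 913 IDs of the C05 segment and 477 among the 772 IDs of the A05 segment, together 917 of the 45801 *B. napus* genes that reached 1 TPM in either line. Of the IDs that were not members, 210 on C05 and 104 on A05 were listed at 0 in all 12 libraries. The segments were chosen by the difference in TPM between N99 and DH12075, so differences between the lines are given as descriptions without a test.

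The study sequenced RNA from 4 lines of 3 oilseed species in 24 libraries, of which the 12 *B. napus* libraries were used. The groups were DH12075 cotyledon, DH12075 leaf, N99 cotyledon and N99 leaf, with 3 biological replicates each. Fully expanded cotyledons and first true leaves came from young seedlings raised in a growth chamber, and no treatment was named in the sources used here. Both lines were quantified against the transcripts of DH12075, and reads that fit an A copy and a C copy equally are divided between them by estimate. A gene that N99 lacks, a gene that it does not transcribe and a transcript too different from the DH12075 sequence to be counted cannot be told apart in these values.

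*B. napus* is an allotetraploid that carries an A subgenome from *B. rapa* and a C subgenome from *B. oleracea*. Most genes are therefore present as an A copy and a C copy, called homoeologs, and chromosomes A05 and C05 correspond to each other over much of their length. Homoeologous chromosomes of *B. napus* can pair and exchange segments, and a line can then carry a chromosome stretch in additional A copies at the expense of C copies or the reverse. The tables carry no names or functions for the gene IDs, so the genes below are named by ID, no role is given, and cell type markers could not be checked. IDs were read in numerical order as the order of genes along the chromosome, which the files do not state.

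Each library summed to 1000000 TPM, and the sequencing depth behind these values is unknown. Between 37497 and 41501 genes reached 1 TPM per library. N99 cotyledon replicate 2 stood apart, with 37.1% of its TPM in its 10 most abundant genes against 7.98% to 11.9% in the other 11 libraries. The medians of the flanks and stretches and the direction of the tissue calls in N99 are given with and without it. The sums of single parts and their SD include it.

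Along C05 and A05, long blocks of genes with a shifted N99 level lay at the chromosome ends. Outside the end segments, and apart from windows that reach into them, the running median over 31 genes lay between -1.86 and 0.51 on C05, where it went under -1 in 1 block of 24 genes, and between -0.73 and 0.33 on A05. Inside the segments it reached -3.01 on C05 and 1.04 on A05. The median log2 ratio of N99 over DH12075, computed as log2((N99 mean + 1)/(DH12075 mean + 1)), was 0.01 over the 2086 expressed genes of the rest of C05 and -0.05 over the 1520 of the rest of A05. It was -0.03 over all 45801 genes. Within the segments it was -1.19 on C05 and 0.49 on A05.

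**Figure D1:**
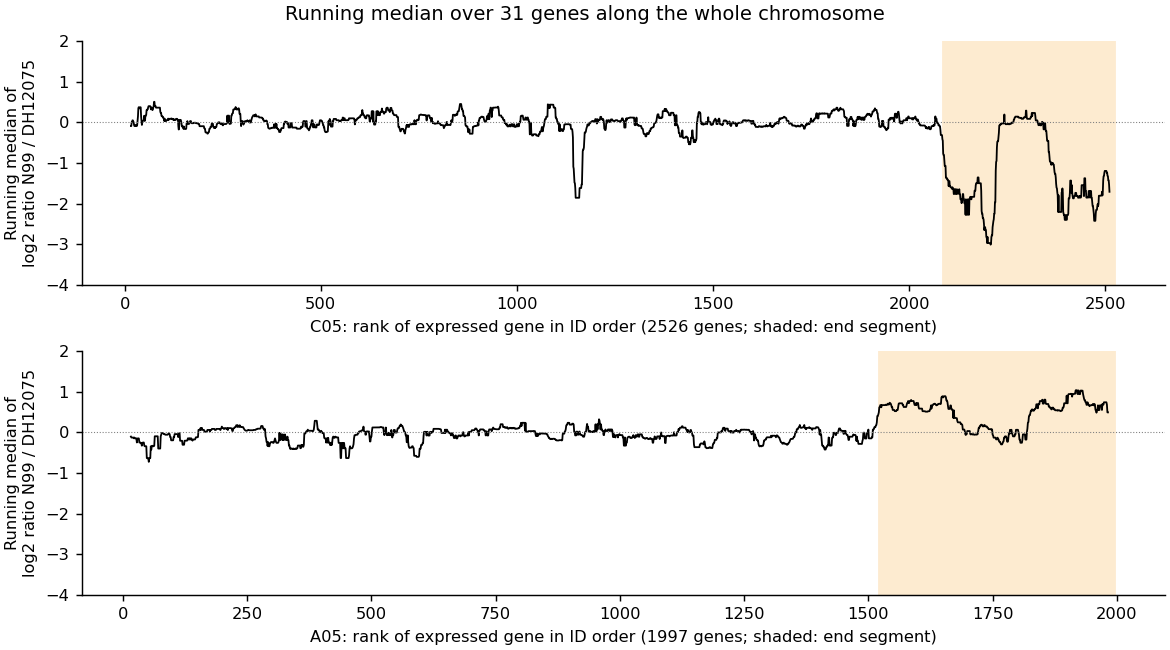
Running median over 31 neighbouring genes of the log2 ratio of N99 over DH12075 (y axis) against the rank of the expressed gene in ID order (x axis) for C05 (top, 2526 genes) and A05 (bottom, 1997 genes), with the end segments shaded. In the shaded part C05 drops below 0 in blocks on either side of a stretch near 0, while A05 rises above 0 in blocks on either side of a stretch near 0.

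The C05 segment fell into 3 parts: a first flank of 137 members, a stretch of 139 members whose expression was kept in N99, and a last flank of 164 members. The kept stretch ran from BnaC05g065900 to BnaC05g068470 and was found by the run of genes with the highest score, in which an N99 mean of at least 0.5 times DH12075 counted as kept, under 0.1 times as depleted, and anything between as intermediate. A second rule split the log2 ratios by least absolute deviation into a level inside the stretch and a level shared by both flanks. It was added after the data were seen and gave the same ends. The A05 segment was split in the same way after its values were seen, into a first flank of 160, an inner stretch of 144 from BnaA05g039920 to BnaA05g042270, and a last flank of 173 members. The kept stretch covered the members between 31.1% and 62.7% of the C05 segment, and the inner stretch those between 33.5% and 63.7% of the A05 segment.

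**Figure D2:**
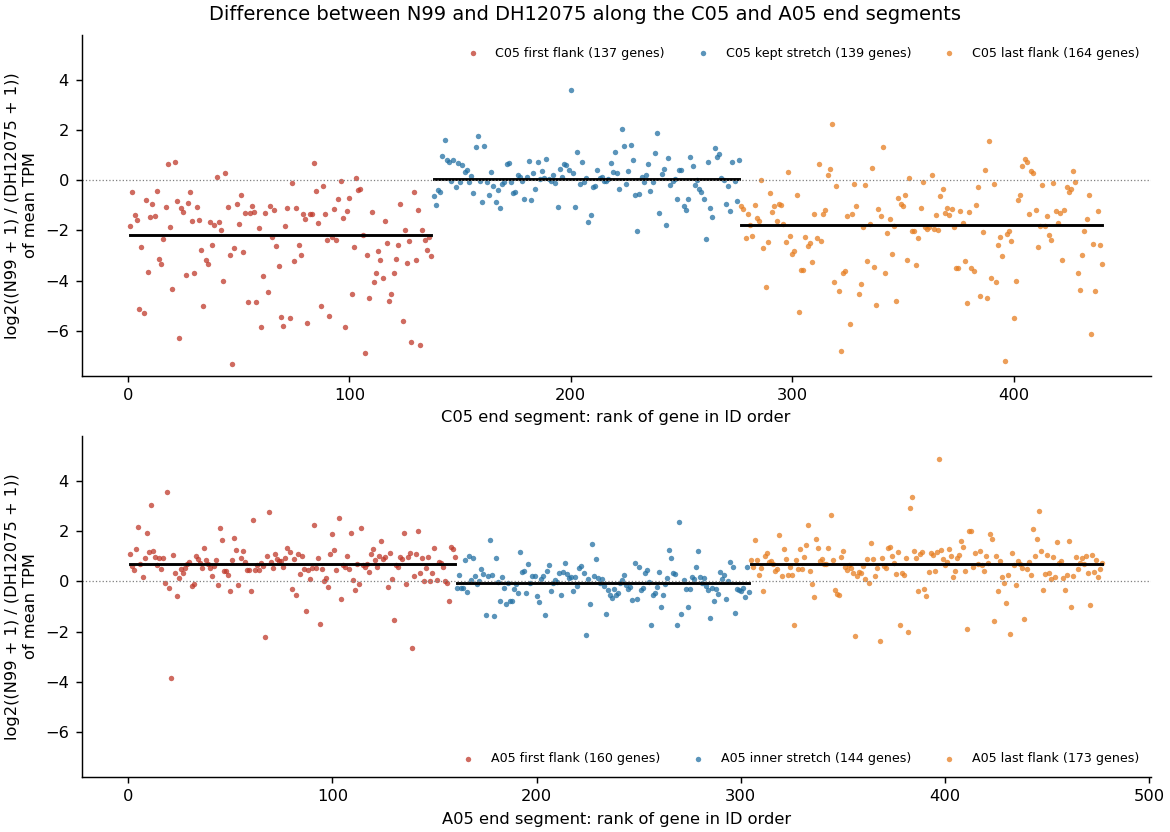
Log2 ratio of N99 over DH12075 (y axis, from the mean of 6 libraries per line plus 1 TPM) for each member (points) in ID order (x axis) of the C05 segment (top) and the A05 segment (bottom), coloured by part, with the median of each part as a black line. The medians are -2.18, 0.06 and -1.77 on C05 and 0.68, -0.05 and 0.70 on A05.

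In the C05 flanks, most genes that DH12075 expressed were nearly absent from the N99 libraries. Of the 295 flank genes with a DH12075 mean of at least 1 TPM, 183 (62.0%) were depleted in N99, 68 were intermediate and 44 (14.9%) were kept. Over all 41199 *B. napus* genes with that DH12075 mean, 4.50% were depleted and 79.7% were kept. The first flank held 92 depleted genes among 135, and the last flank 91 among 160. In 239 of the 301 flank members (79.4%) all 6 N99 libraries were below all 6 DH12075 libraries, against 14.7% of all genes, a measure from the contrast that chose the segment. The tissues gave nearly the same counts, with 179 of 285 genes depleted in cotyledons and 177 of 288 in leaves, against 4.60% and 4.56% of all genes.

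The remaining N99 level was lowest, in proportion, for the genes that DH12075 expressed most, although the DH12075 level enters both this grouping and the proportion. Among the 65 flank genes at 20 TPM or more in DH12075, 49 were depleted and the median N99 level was 0.895% of the DH12075 level. Among the 95 genes from 5 to 20 TPM, 59 were depleted and the median was 3.19%. Among the 135 genes from 1 to 5 TPM, 75 were depleted, 26 were kept and the median was 5.20%. Of all flank members, 181 stayed under 1 TPM in every N99 library, and 43 of these were listed at 0 in all 6, with DH12075 means from 1.14 to 119 TPM.

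The 6 depleted genes with the highest DH12075 means lay in both flanks. BnaC05g063330, the highest, had a lowest, median and highest value of 190, 275 and 323 TPM in DH12075 and of 1.08, 2.43 and 3.88 TPM in N99. BnaC05g063930 had 159, 178 and 188 TPM in DH12075 and 0.0448, 0.0688 and 0.207 TPM in N99. BnaC05g063040 had 32.9, 177 and 284 TPM in DH12075 and 0.884, 3.07 and 5.48 TPM in N99. In each of these genes every N99 library was below every DH12075 library, and the wide range of BnaC05g063040 in DH12075 came from the tissues, since its cotyledon mean was 276 TPM and its leaf mean 52.3 TPM. BnaC05g071320 ranged from 75 to 271 TPM in DH12075 and was listed at 0 in 5 N99 libraries and at 0.239 TPM in the other one. BnaC05g065240 ranged from 99.9 to 149 TPM in DH12075 and was listed at 0 in all 6 N99 libraries. BnaC05g069550 ranged from 71.2 to 166 TPM in DH12075, was listed at 0 in 4 N99 libraries and did not exceed 0.0349 TPM in the remaining ones. None of these genes overlapped between the lines, which their choice as depleted genes with high DH12075 means favours.

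**Figure D3:**
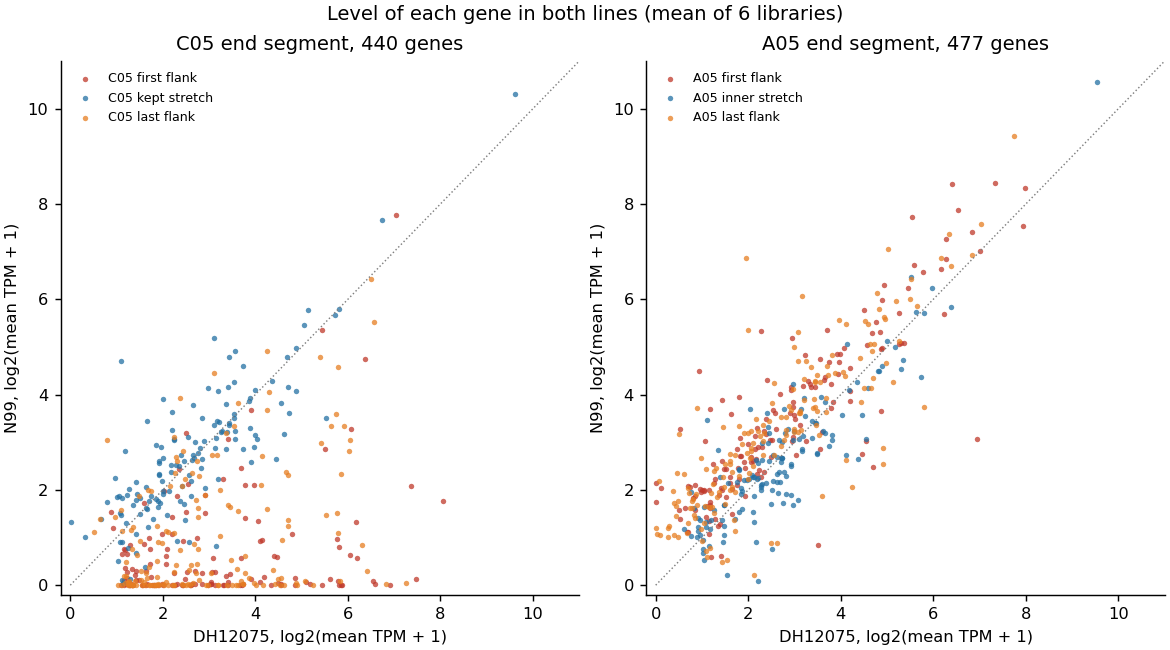
Level of each member in DH12075 (x axis) and N99 (y axis), as log2(mean TPM + 1) over 6 libraries, for the C05 segment (left, 440 genes) and the A05 segment (right, 477 genes), coloured by part, with the line of equal levels dotted. C05 flank genes lie mostly far below the dotted line and many lie at the bottom of the plot, kept stretch genes lie around the line, and A05 flank genes lie mostly above it.

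Depleted genes did not form 1 unbroken run. The longest run of depleted genes, counted over genes with a DH12075 mean of at least 1 TPM, held 12 genes (BnaC05g070790 to BnaC05g071000). The next held 10 (BnaC05g065200 to BnaC05g065420), and kept or intermediate genes, single or in short runs, lay between such runs. The 44 kept genes of the flanks were 13 in the first and 31 in the last flank, and their longest run held 5 genes, BnaC05g071730 to BnaC05g071860. These 44 genes carried 67.4% of the summed N99 TPM of the flanks, and the 6 most expressed of them 45.9%. Without them, the flanks summed to 4609 TPM in DH12075 and to 297 TPM in N99, which is 6.45%.

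Of the 6 genes of the flanks that N99 kept at the highest level, BnaC05g063310 was the most expressed, at 66.6, 186 and 438 TPM (lowest, median and highest) in N99 and 21.3, 133 and 239 TPM in DH12075. BnaC05g071860 had 58.0, 85.9 and 101 TPM in N99 and 80.8, 87.9 and 103 TPM in DH12075. BnaC05g064500 had 33.2, 36.3 and 50.4 TPM in N99 and 32.6, 39.7 and 61.7 TPM in DH12075. The lines overlapped in all 3 genes. BnaC05g069330 (N99 mean 29.2 TPM, DH12075 mean 18.1 TPM), BnaC05g072050 (26.6 and 41.0 TPM) and BnaC05g070080 (21.0 and 7.61 TPM) overlapped between the lines as well. BnaC05g063310 lies 21st among the C05 members, and BnaC05g063330, the most expressed of the depleted genes, lies 23rd, so close neighbours in the flank could stand at opposite ends of the range.

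The kept stretch of C05 was delimited as the run richest in kept genes, so its counts and median follow from that choice and describe it only. Of its 134 genes with a DH12075 mean of at least 1 TPM, 115 (85.8%) were kept, 15 were intermediate and 4 were depleted, and the median log2 ratio was 0.06 with quartiles of -0.38 and 0.64. In the rest of C05 83.4% of such genes were kept, and over all genes 79.7%. None of its members was listed at 0 in all N99 libraries. Its longest run of kept genes held 25 genes, BnaC05g066380 to BnaC05g066840. The 4 depleted genes, BnaC05g066850, BnaC05g068030, BnaC05g068040 and BnaC05g068210, had DH12075 means of 1.19, 1.18, 1.45 and 7.93 TPM. All N99 libraries were below all DH12075 libraries in 17 of 139 members (12.2%) and above them in 20 (14.4%), against 14.7% and 12% of all genes.

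BnaC05g066030 was the most expressed gene of the stretch and of the whole C05 segment, with 578, 804 and 990 TPM (lowest, median and highest) in DH12075 and 776, 1265 and 1785 TPM in N99. BnaC05g068280 had 60.9, 103 and 143 TPM in DH12075 and 77.7, 167 and 463 TPM in N99, and its 3 highest values were the N99 cotyledons. BnaC05g066250 had 26.7, 54.1 and 89.3 TPM in DH12075 and 12.4, 52.4 and 107 TPM in N99. The lines overlapped in each of these genes, and they also overlapped in BnaC05g066050 (DH12075 mean 34.2 TPM, N99 mean 53.4 TPM), BnaC05g067060 (52.1 and 49.9 TPM) and BnaC05g066080 (32.0 and 43.3 TPM).

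At the ends of the kept stretch, the genes just outside were depleted at its start and intermediate at its end. Before its start, BnaC05g065850 and BnaC05g065890 had DH12075 means of 3.80 and 7.22 TPM and N99 means of 0.00696 and 0.0176 TPM. Inside, BnaC05g065900 had 3.27 and 1.78 TPM and BnaC05g065910 15.5 and 7.39 TPM. At the other end, BnaC05g068460 and BnaC05g068470 inside the stretch had DH12075 means of 14.9 and 3.73 TPM and N99 means of 7.90 and 7.32 TPM. Past it, BnaC05g068480 had 93.6 and 45.0 TPM and BnaC05g068520 5.75 and 2.08 TPM, both intermediate.

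At the start of the segments, the last genes outside the C05 border were BnaC05g062800 (DH12075 mean 1.69 TPM, N99 mean 4.02 TPM) and BnaC05g062810 (8.62 and 2.23 TPM), and the first inside were BnaC05g062950 (2.52 TPM and 0) and BnaC05g062990 (1.28 and 0.669 TPM). Among the 40 expressed genes before the border, 0 of 39 with a DH12075 mean of at least 1 TPM were depleted, and their median log2 ratio was 0.01. Among the first 40 members inside, 21 of 39 were depleted and the median was -1.62. On A05, BnaA05g037340 (4.32 and 3.80 TPM) and BnaA05g037440 (2.65 and 2.36 TPM) lay outside, and BnaA05g037450 (0.416 and 1.99 TPM) and BnaA05g037470 (1.68 and 3.12 TPM) inside. The 40 genes before that border had a median log2 ratio of -0.13 and the first 40 inside of 0.71. At the limit of 1 TPM, BnaC05g068600 and BnaA05g044480, with a higher line mean of 0.985 and 0.975 TPM, were not members, whereas BnaC05g067310 and BnaA05g042680, at 1.02 and 1.002 TPM, were.

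In the A05 flanks N99 was moderately but widely higher. The median log2 ratio over the 333 flank members was 0.69, with quartiles of 0.28 and 1.04, and 281 of them (84.4%) were above 0. This corresponds to a median N99 level of 1.62 times DH12075. Of these members 51 passed the limit of 1 TPM through N99 alone, which fixes their direction. Over the 270 flank members that reached 1 TPM in both lines the median was 0.63 with quartiles of 0.26 and 0.99, 230 (85.2%) were above 0 and 100 (37.0%) had all N99 libraries above all DH12075 libraries. Over all genes with that level in both lines the median was -0.03, and these shares were 47.4% and 8.23%. This narrower set was added after the data were seen. Over all flank members, the 6 N99 libraries were above the 6 DH12075 libraries in 139 (41.7%), against 12% of all genes, in the contrast that chose the segment. The first and last flanks were alike, with medians of 0.68 and 0.70, and so were cotyledons (0.59) and leaves (0.70). The rule that split A05 had fitted both flanks at a shared level. The inner stretch had a median of -0.05 with quartiles of -0.42 and 0.29, and all N99 libraries were above all DH12075 libraries in 13 of its 144 members (9.03%). Without N99 cotyledon replicate 2 the medians were 0.76 in the A05 flanks, 0.03 in the inner stretch, -1.85 in the C05 flanks and 0.17 in the kept stretch, with 0.03 over all genes. After each library was rescaled to the total without its 10 top genes they were 0.77, 0.02, -1.95 and 0.11, with 0.03 over all genes, so the signs of the inner stretch and of all genes turned.

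The shift ran through the length of the A05 flanks. In successive windows of 20 members, the medians of the 8 windows of the first flank lay between 0.49 and 0.94, those of the next 7 windows between -0.27 and 0.20, and those of the last 9 windows between 0.52 and 1.0. On C05, the medians of the first 7 windows lay between -3.08 and -1.35, those of the next 7 between -0.52 and 0.38, and those of the last 8 between -2.55 and -1.22. Each window was counted with the part that held most of it. The window medians of the flanks did not overlap those of the stretches between them on either chromosome, which the choice of the stretches favours.

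In proportion, the excess of N99 in the A05 flanks was larger where DH12075 was low, and here too the DH12075 level enters both the grouping and the proportion. The median N99 level was 185% of DH12075 for the 130 genes from 1 to 5 TPM in DH12075, 165% for the 88 genes from 5 to 20 TPM and 139% for the 64 genes from 20 TPM. In the whole A05 segment 61 members reached 1 TPM in N99 alone and 22 in DH12075 alone, whereas in the C05 segment 11 did so in N99 alone and 216 in DH12075 alone. Over all genes, 10% reached 1 TPM in N99 alone and 9.93% in DH12075 alone.

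The most expressed A05 members were BnaA05g039980, with 564, 781 and 909 TPM (lowest, median and highest) in DH12075 and 999, 1402 and 2508 TPM in N99, and BnaA05g042320, with 106, 192 and 408 TPM in DH12075 and 422, 540 and 1145 TPM in N99. BnaA05g038690 had 83.3, 166 and 225 TPM in DH12075 and 247, 309 and 463 TPM in N99. BnaA05g039550 had 47.1, 78.0 and 132 TPM in DH12075 and 227, 302 and 473 TPM in N99. In these 4 genes every N99 library was above every DH12075 library, and the same held for BnaA05g038600 (means of 92.0 TPM in DH12075 and 234 TPM in N99). Their choice by N99 mean favours this. BnaA05g037760 had 199, 264 and 291 TPM in DH12075 and 156, 354 and 454 TPM in N99, and the lines overlapped because 2 N99 cotyledon libraries lay below all DH12075 libraries. BnaA05g039980 was the only one of the 6 in the inner stretch, with DH12075 and N99 means of 746 and 1508 TPM. BnaC05g066030, the most expressed gene of the kept stretch, had 787 and 1271 TPM. Whether these genes are homoeologs was not tested.

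A few A05 genes were far outside this range. BnaA05g043920 had 1.08, 2.81 and 5.01 TPM (lowest, median and highest) in DH12075 and 18.2, 86.8 and 339 TPM in N99, a log2 ratio of 4.91. BnaA05g037700 (means of 0.912 and 21.7 TPM, log2 ratio 3.57), BnaA05g043660 (2.96 and 39.9 TPM, 3.37) and BnaA05g037590 (3.87 and 39.4 TPM, 3.05) followed, and in all of them every N99 library was above every DH12075 library. In the opposite direction, BnaA05g037730 had 22.2, 122 and 224 TPM in DH12075 and 1.29, 6.87 and 14.5 TPM in N99, a log2 ratio of -3.87. BnaA05g039500 (10.3 and 0.794 TPM, -2.66), BnaA05g043320 (28.9 and 4.83 TPM, -2.36) and BnaA05g038420 (24.9 and 4.62 TPM, -2.20) were lower as well, with every N99 library below every DH12075 library. The genes of both directions were picked by this ratio, which favours such a separation of the lines. In the whole A05 segment 5 genes were depleted in N99, 3 of them in the flanks.

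BnaA05g037730, the A05 gene with the smallest ratio, lies 21st among the A05 members, and BnaC05g063310, the C05 flank gene that N99 kept at the highest level, lies 21st among the C05 members. Their DH12075 means were 122 and 131 TPM, and their N99 means 7.44 and 216 TPM. Their sum was 253 TPM in DH12075 and 224 TPM in N99. In the 23rd place of both orders, BnaA05g037760 and BnaC05g063330 had DH12075 means of 253 and 266 TPM, and N99 means of 323 and 2.38 TPM. That pair summed to 519 TPM in DH12075 and to 325 TPM in N99. These pairs were chosen after their values were seen, and whether they are homoeologs was not tested, since no annotation pairs the IDs.

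The sums over the parts showed the same division. Over the C05 flanks the TPM summed to 5139 ± 138 (SD, n = 6) in DH12075 and 912 ± 153 in N99, a ratio of 0.18. Over the A05 flanks they summed to 4847 ± 135 in DH12075 and 8067 ± 1197 in N99, a ratio of 1.66. No library of either line came within the range of the other in these sums. The kept stretch of C05 summed to 1956 ± 211 TPM in DH12075 and 2596 ± 565 in N99, a ratio of 1.33 that was 1.13 without BnaC05g066030. The inner stretch of A05 summed to 2037 ± 152 TPM and 2712 ± 625 TPM, a ratio of 1.33 that was 0.93 without BnaA05g039980.

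**Figure D4:**
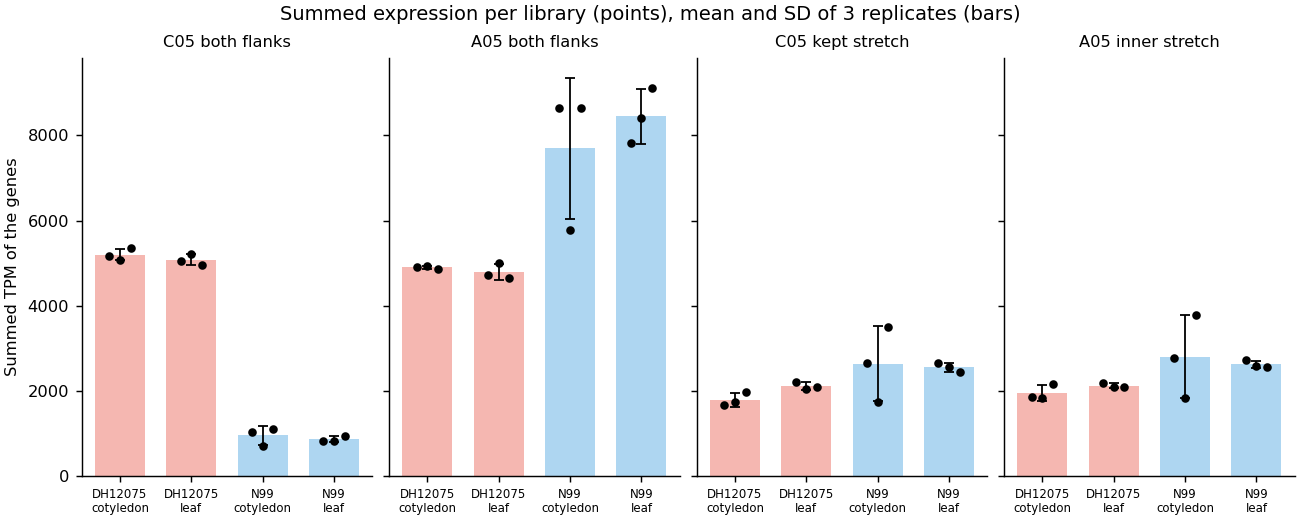
Summed TPM (y axis, from 0) of the members of the C05 flanks, A05 flanks, C05 kept stretch and A05 inner stretch in each library (points) by line and tissue (x axis), with the mean of 3 replicates as a bar and the SD as a line. N99 libraries sum to 703 to 1115 TPM in the C05 flanks against 4955 to 5348 in DH12075, and to 5780 to 9107 TPM in the A05 flanks against 4648 to 4999.

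Within DH12075, C05 and A05 contributed almost equally. The C05 share of the summed TPM of the flanks was between 50.7% and 52.4% in the 6 DH12075 libraries and between 9.04% and 11.4% in the 6 N99 libraries. Between the kept stretch and the inner stretch, the C05 share was between 47.6% and 50.4% in DH12075 and between 48.1% and 49.7% in N99, with a mean of 48.9% in both lines. In N99, BnaC05g066030 had a mean of 1271 of the 2596 TPM of the kept stretch. BnaA05g039980 had 1508 of the 2712 TPM of the inner stretch. Without these genes the ratio of N99 over DH12075 was 1.13 in the kept stretch and 0.93 in the inner stretch. The equal mean shares of the lines therefore rest on them. A share within a library does not depend on the scaling of that library.

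Added over C05 and A05, the sums of all members and of the flanks differed between the lines by less than the SD of the N99 libraries. N99 cotyledon replicate 2 widened that spread. All members of both segments summed to 13979 ± 357 TPM (SD, n = 6) in DH12075 and 14287 ± 2314 TPM in N99, a ratio of 1.02 that was 1.02 in cotyledons and 1.03 in leaves. The flanks of both chromosomes together summed to 9986 ± 246 TPM in DH12075 and 8979 ± 1317 TPM in N99, a ratio of 0.90. The lowest of these N99 sums, 6483 TPM, was that of N99 cotyledon replicate 2, and the other 5 were between 8644 and 10049 TPM against 9602 to 10221 TPM in DH12075. With each library rescaled without its 10 most abundant genes, the ratio was 0.95 for the flanks and 1.08 for all members. Before rescaling, leaving out the most expressed gene gave 0.85 for the flanks (BnaA05g042320) and 0.97 for all members (BnaA05g039980). The kept stretch and the inner stretch together summed to 3993 ± 357 TPM in DH12075 and 5308 ± 1188 TPM in N99, a difference above the N99 SD. Their ratio was 1.33, and 1.17 without BnaA05g039980.

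Leaf and cotyledon were compared within each line, a contrast that the choice of the segments did not use. The test was limma on log2(TPM + 1), adjusted by Benjamini-Hochberg over all genes tested, with a threshold of 0.05. In DH12075, where both segments were expressed, they took part in the tissue difference about as often as the genome. Of 429 C05 members tested, 208 (48.5%) passed, 91 higher and 117 lower in leaf, and of 416 A05 members 198 (47.6%) passed, 81 higher and 117 lower. Over all genes 50.4% passed, 20.8% higher and 29.5% lower. Quantile normalization turned the C05 split to 107 higher and 101 lower. The median log2 difference was -0.05 on C05 and -0.08 on A05, against -0.08 over all genes. The C05 flanks, with 142 of 295 genes, and the kept stretch, with 66 of 134, were similar in DH12075.

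Among the genes with the widest tissue difference in DH12075, BnaC05g069950 had 0.231, 0.607 and 0.286 TPM in the cotyledons and 57.7, 76.7 and 15.5 TPM in the leaves, 4.95 ± 0.53 higher on the log2 scale (SE, limma adjusted p = 0.000395). It was depleted in N99, but its N99 leaves, at 1.51, 4.15 and 2.07 TPM, were still above the N99 cotyledons, which were at 0.0947 to 0.158 TPM. BnaC05g069300 followed, with DH12075 means of 4.42 TPM in cotyledons and 44.5 TPM in leaves (3.06 higher, adjusted p = 9.2e-05). On the cotyledon side, BnaC05g068460, next to the end of the kept stretch, had 23.0, 24.5 and 32.1 TPM in cotyledons and 3.20, 4.16 and 2.19 TPM in leaves (log2 difference -2.73, adjusted p = 0.000118). BnaC05g063310 had means of 221 and 41.2 TPM (-2.62, adjusted p = 0.00239). On A05, BnaA05g043540 and BnaA05g042940 rose in DH12075 leaves by 3.88 and 2.61, and BnaA05g038080 and BnaA05g042180 fell by 3.0 each, with limma adjusted p from 6.6e-05 to 0.00328.

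In N99, 29.4% of all 41254 genes tested passed, 17.2% higher and 12.2% lower in leaf. The A05 segment was close to this, with 135 of 455 members (29.7%), 83 higher and 52 lower. In the kept stretch of C05, 29 of 127 members (22.8%) passed, 19 higher and 10 lower. Only 97 of the 301 C05 flank members reached the mean of 1 TPM in N99 that the test needed, and 31 of these passed, 26 higher and 5 lower. On A05, in the kept stretch and over all genes, the direction of the N99 calls turned without N99 cotyledon replicate 2. That library held 37.1% of its TPM in 10 genes, and its part in these calls was measured by leaving it out. Without it, the A05 members split into 58 higher and 68 lower and the kept stretch into 9 higher and 14 lower, and of all genes 11.3% were higher and 14.8% lower. Rescaling the libraries without their 10 most abundant genes gave 94 higher and 103 lower on A05 and 22 higher and 25 lower in the kept stretch, with 17.8% of all genes higher and 20.8% lower, and moved the median log2 difference of all genes from 0.04 to -0.06. Quantile normalization gave 100 higher and 94 lower on A05 and 28 and 16 in the kept stretch, with 20.4% of all genes higher and 19.1% lower. The C05 flanks stayed mostly higher, with 21 higher and 11 lower without N99 cotyledon replicate 2. They split into 25 and 15 after rescaling and into 29 and 13 with quantile normalization. These splits of the C05 flanks were added after the data were seen. Leaving out N99 leaf replicate 2 or leaf replicate 3 lowered the count of the kept stretch from 29 to 16 in either case, and the share of all genes that passed from 29.4% to 22.4% and 22.2%.

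The A05 gene with the widest difference in N99 was BnaA05g043920, at 138, 147 and 339 TPM in the cotyledons and 35.3, 19.0 and 18.2 TPM in the leaves (log2 difference -2.99 ± 0.37, limma adjusted p = 5.7e-06). In DH12075 the same gene had 4.50 and 1.27 TPM (-1.28, adjusted p = 0.000279), so it was higher in cotyledons in both lines. BnaA05g043110 and BnaA05g039380 rose in N99 leaves by 2.67 and 2.66 (adjusted p = 6.1e-06 and 1.4e-05), and BnaA05g038290 fell by 2.56 (adjusted p = 3.6e-06). Each of these 3 genes also passed in DH12075 in the same direction, with log2 differences of 2.01, 1.99 and -1.52. On C05, BnaC05g067000 of the kept stretch had 9.91, 5.51 and 5.35 TPM in N99 cotyledons and 49.7, 45.3 and 35.5 TPM in N99 leaves (2.52 higher, adjusted p = 3.2e-06). BnaC05g069520, one of the kept genes of the last flank, rose by 2.43 (adjusted p = 8.8e-06). The 2 C05 genes that fell furthest in N99 leaves were BnaC05g063310, by 1.75 (adjusted p = 0.000485), and BnaC05g068280, by 1.52 (adjusted p = 0.00267).

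The tissue differences of both lines were set side by side. Across the 394 A05 genes tested in both lines, the leaf minus cotyledon differences had a Pearson r of 0.77, and across the 122 genes of the kept stretch 0.60, against 0.68 across 36652 genes. Across the C05 flank genes that could be tested in both lines it was 0.76 in the first flank (29 genes) and 0.69 in the last (62 genes). These values describe genes, which share libraries and are not replicates. Of the A05 genes, 83 passed in both lines in the same direction, 1 in opposite directions, 104 in DH12075 alone and 30 in N99 alone, which is 21.1%, 0.254%, 26.4% and 7.61%. Over the 36652 genes the shares were 19.9%, 1.14%, 29.3% and 7.77%.

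**Figure D5:**
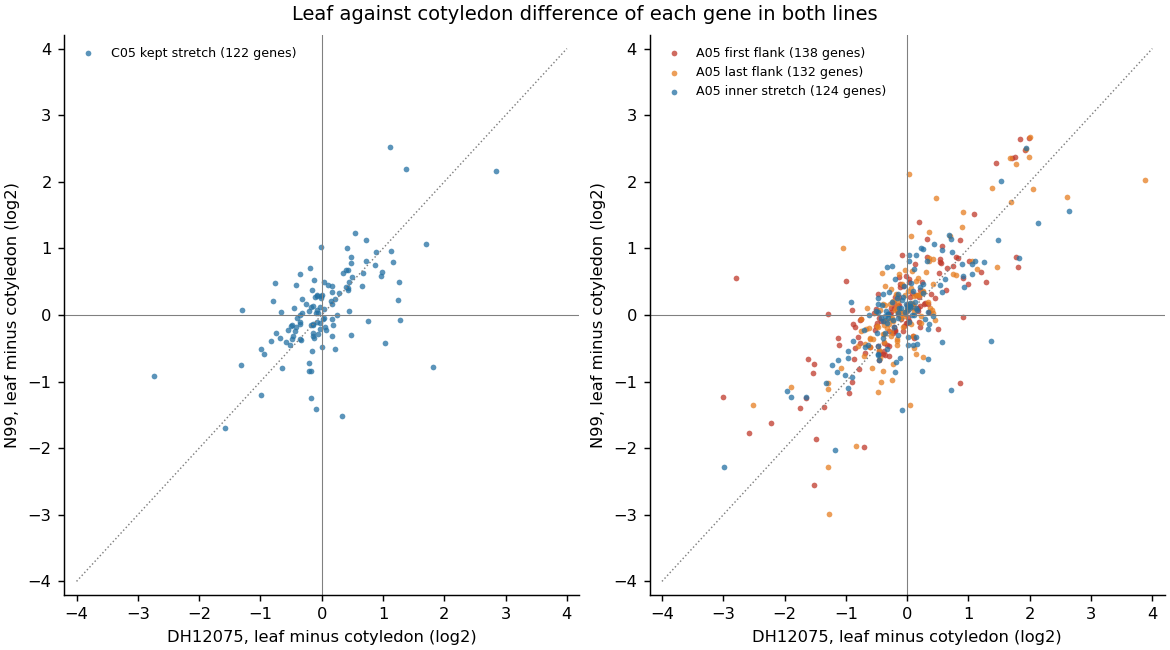
Leaf minus cotyledon difference of log2(TPM + 1) in DH12075 (x axis) and N99 (y axis) for the genes tested in both lines, in the kept stretch of C05 (left, 122 genes) and on A05 (right, 394 genes, coloured by part), with the line of equal differences dotted. Most genes lie in the lower left and upper right quadrants, with r of 0.60 on the left and 0.77 on the right.

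Whether the tissue difference itself differed between the lines was tested by an interaction term over the 12 libraries. On A05, 34 of 477 members (7.13%) passed at an adjusted p of 0.05, 22 with a more positive leaf minus cotyledon difference in N99 and 12 with a more negative one. In the kept stretch 15 of 139 (10.8%) passed, 8 more positive and 7 more negative. Over all 45801 genes 10.8% passed, 7.72% more positive and 3.1% more negative. Without N99 cotyledon replicate 2 the A05 direction turned, to 21 more positive and 24 more negative, and the kept stretch split into 6 and 11. Quantile normalization gave 27 and 38 on A05 and 9 and 17 in the kept stretch and moved the median of all genes from 0.13 to 0.01, and rescaling gave 27 and 32, and 10 and 16. Of the calls over all genes, 71.4% were more positive in the full data, 57.1% without that library, 54.5% with quantile normalization and 57.7% with rescaling. The A05 count fell to 18 without DH12075 cotyledon replicate 1, DH12075 leaf replicate 1 or N99 leaf replicate 3, and to 22 without DH12075 cotyledon replicate 2, while the share of all genes that passed fell from 10.8% to 6.49%, 7.02%, 7.14% and 8.48% in these fits.

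Single genes with such an interaction lay in all parts that were tested. BnaA05g042780 had 12.8, 6.28 and 11.5 TPM in DH12075 cotyledons and 10.8, 10.1 and 9.13 TPM in DH12075 leaves, but 3.98, 1.86 and 2.92 TPM in N99 cotyledons and 12.5, 16.5 and 18.5 TPM in N99 leaves. The tissues overlapped in DH12075 and were apart in N99, and the difference was 2.09 ± 0.36 more positive in N99 (SE, limma adjusted p = 0.00309). BnaA05g043640 had means of 11.1 and 4.75 TPM in DH12075 cotyledons and leaves and of 45.1 and 88.0 TPM in N99, so that its tissue difference had opposite signs in the lines and passed in each (interaction 2.05, adjusted p = 0.00317). BnaA05g041230 of the inner stretch had means of 5.24 and 15 TPM in DH12075 cotyledons and leaves and of 6.89 and 4.85 TPM in N99 (interaction -1.75, adjusted p = 0.00205). BnaA05g037700, which entered this test through its N99 level alone, was under 1 TPM in DH12075 cotyledons, at a mean of 0.322 TPM against 1.5 TPM in leaves, and had 37.0 and 6.37 TPM in N99 (interaction -3.23, adjusted p = 0.0058).

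In the kept stretch, BnaC05g067030 had means of 2.07 and 8.49 TPM in DH12075 cotyledons and leaves and of 16.3 and 9.19 TPM in N99 (interaction -2.60 ± 0.55, limma adjusted p = 0.00913), and its tissue difference passed in each line with opposite signs. BnaC05g068460 had 26.5 and 3.18 TPM in DH12075 and 10.6 and 5.23 TPM in N99 (1.82, adjusted p = 0.00238), so it was higher in cotyledons in both lines and less so in N99. BnaC05g068280, with 95.0 and 116 TPM in DH12075 and 301 and 100 TPM in N99 (-1.85, adjusted p = 0.0259), and BnaC05g067000, with 0.322 and 1.93 TPM in DH12075 and 6.92 and 43.5 TPM in N99 (1.41, adjusted p = 0.0209), lost their calls when single libraries were left out. For BnaC05g067000 these were DH12075 cotyledon replicate 2 (adjusted p = 0.0537), DH12075 leaf replicate 1 (0.0606) and N99 cotyledon replicate 2 (0.0517), and a pseudocount of 0.1 TPM gave 0.43 with an adjusted p of 0.643. For BnaC05g068280 they were DH12075 cotyledon replicate 1 and DH12075 leaf replicate 1 (both 0.0715), N99 leaf replicate 2 (0.0555) and N99 leaf replicate 3 (0.0670), and the call was also lost with no filter on low values (0.0614).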

How the data were processed

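RNA-seq values of 12 *B. napus* libraries were used. Reads had been cleaned with Trimmomatic (0.32) and assigned by Salmon (1.10.0) to the transcripts of DH12075, and tximport gave values per gene. The authors deposited these as TPM, 1 table of 123329 genes for each line, unfiltered and with replicates apart. The methods name a stranded mRNA kit for the libraries and the labels a TruSeq kit. Reads that fit both an A copy and a C copy are divided by estimation in such a quantification, so the split between near-identical copies is uncertain. The 2 tables of the other species were not used. Of the IDs, 0 were found in the RefSeq gene table of *B. napus*, so no names, coordinates or sequences are given.

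Samples were grouped by line and tissue from the labels. The members, the lists and the tests were chosen with earlier results of these data known. The labels do not say whether libraries with the same replicate number are paired, and the main fits did not pair them. The contrast of leaf and cotyledon was fitted per line over genes whose mean reached 1 TPM in that line, and the interaction of tissue and line over genes whose mean reached 1 TPM in at least 1 line, all with limma 3.58.1 (R 4.3.3) on log2(TPM + 1) with a trend in the variance. A pseudocount of 1 understates differences of low genes. The authors' test, DESeq2, needs counts. The steps were tested on simulated data. The kept stretch was the run with the highest score (1 for a kept, -0.5 for an intermediate, -1 for a depleted gene).

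Named genes are the 6 depleted C05 genes with the highest DH12075 mean, the 6 kept flank genes and the 6 genes of the kept stretch with the highest N99 mean, the 6 A05 genes with the highest N99 mean, and the 4 with the largest and the smallest log2 ratio among A05 members with at least 10 TPM in a line. To these come 2 genes on each side of a border and, per segment and test, the 2 largest differences in each direction among called genes with at least 10 TPM and no overlap between tissues (for the interaction, in at least 1 line). Genes named by count or place were chosen after their values were seen. Alternatives were a pseudocount of 0.1, no filter, a filter at 5 TPM, quantile normalization, rescaling without the 10 most abundant genes, the replicate number as a block, other limits for depleted and kept genes, single tissues and each library left out in turn.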

Additional observations from a re-analysis of the deposited data

Results flagged for a closer look

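The leaf minus cotyledon difference of 8 named genes differed between N99 and DH12075 by the interaction term of limma, on the log2(TPM + 1) scale. It was more positive in N99 by 2.09 in BnaA05g042780, 2.05 in BnaA05g043640, 1.82 in BnaC05g068460 and 1.41 in BnaC05g067000. It was more negative in N99 for BnaA05g037700 (-3.23), BnaC05g067030 (-2.60), BnaC05g068280 (-1.85) and BnaA05g041230 (-1.75). BnaA05g037700 had a DH12075 mean of 0.912 TPM and entered the test through its N99 level alone. The difference of BnaC05g067000 depended on the pseudocount of 1 TPM, and its call was lost with 0.1 TPM. Its cotyledon and leaf means were 0.322 and 1.93 TPM in DH12075 and 6.92 and 43.5 TPM in N99. The 6 genes other than BnaC05g067000 and BnaC05g068280 kept their call under each alternative that was run.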

How the results depend on the processing

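TPM give no depth, and 3 replicates per group limit the precision. Of the tests of named genes under alternatives, 326 kept their direction and call and 10 lost the call, all in the interactions of BnaC05g067000 and BnaC05g068280. Of the 429 C05 members with a DH12075 mean of at least 1 TPM, 187 were depleted in N99. Of the 225 with a DH12075 mean of at least 5 TPM, 109 were depleted. A filter at 5 TPM, which tests fewer genes, gave 129 (C05, 57.3%) and 126 (A05, 56.8%) tissue calls in DH12075, against 58.8% of all genes. It gave 19 interaction calls (6.44%) on A05, against 11.8% of all genes. No filter gave 82 tissue calls (17.2%) on A05 and 15 (10.8%) in the kept stretch in N99, against 12.7% of all genes. Quantile normalization gave 44 calls (34.6%) in the kept stretch in N99, against 39.5% of all genes. It gave 65 (A05, 13.6%) and 26 (kept stretch, 18.7%) interaction calls, against 15.6% of all genes. Rescaling gave 47 calls (35.9%) in the kept stretch in N99, against 38.6% of all genes. Its interaction calls were 59 (A05, 12.4%) and 26 (kept stretch, 18.7%), against 14.6% of all genes. A pseudocount of 0.1 gave 8 interaction calls (5.76%) in the kept stretch, against 8.83% of all genes. The causes were not tested. With each library left out, the ranges were 183 to 188 depleted genes, 130 to 136 genes of the kept stretch with a DH12075 mean of at least 1 TPM (134 in full, 119 from cotyledons and 132 from leaves alone), 0.45 to 0.54 for the A05 median and 0.98 to 1.08 for the summed ratio. Tissue calls ranged from 150 to 231 (C05) and 149 to 213 (A05) in DH12075 and from 94 to 130 (A05) and 16 to 30 (kept stretch) in N99, and interaction calls from 18 to 51 (A05) and 10 to 18 (kept stretch). The share of all genes that passed in these fits ranged from 38.5% to 55.1% in DH12075 and from 22.2% to 28.0% in N99. For the interaction it ranged from 6.49% to 13.7%. The correlation of deviations between same-numbered libraries was -0.08 to 0.20 in DH12075 and -0.33 to -0.12 in N99, and 1 of 3 and 0 of 3 cotyledon libraries correlated best with their own number. The replicate block gave 177 (C05, 41.3%) and 177 (A05, 42.5%) tissue calls in DH12075, against 44.9% of all genes. In N99 it gave 121 (A05, 26.6%) and 22 (kept stretch, 17.3%), against 26.7% of all genes. Its interaction calls were 18 (A05, 3.77%) and 11 (kept stretch, 7.91%), against 7.39% of all genes. The block also ended the call of BnaC05g068280 (limma adjusted p = 0.0653).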

Other observations

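Outside the end segments, 1 other block of C05 was lower in N99. Between BnaC05g027220 and BnaC05g028190, where the running median over 31 genes was under -1, 19 of 23 expressed genes with a DH12075 mean of at least 1 TPM were depleted, the median log2 ratio over 24 genes was -2.46, and the summed TPM was 222 in DH12075 and 32.0 in N99. It was found after the data were seen, and it gets no test. On A05 the running median outside the end segment lay between -0.73 and 0.33.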
